A study of Homo sapiens with 8 samples.

Results

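Base excision repair is represented here by 9 genes, chosen by name because their products act on oxidised bases and single-strand breaks: *OGG1*, *MUTYH*, *NTHL1*, *NEIL1*, *APEX1*, *XRCC1*, *PARP1*, *POLB* and *LIG3*, out of 19974 protein-coding genes on chromosomes 1 to 22 and X. Each was examined over its RefSeq span with 20 kb on each side. The assay was ATAC-seq, which reads out where a transposase can insert into accessible DNA, and the cells were U2OS, a human bone tumour line long kept in culture. The 4 conditions were siOrc6 cells with 5 mM H2O2 for 30 min, siOrc6 cells without it, siGl3 cells with the same H2O2 treatment, and untreated siGl3 cells, where siGl3 is the control siRNA and siOrc6 targets *ORC6*, which codes for a subunit of the complex that marks replication origins. All cells carried an siRNA for 72 h and were synchronised with a double thymidine block, then released for 3 h. Each condition had 2 libraries but 1 peak list, so no spread between libraries can be given and no difference below has a replicate check or a test. The depth behind the lists is unknown.

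Base excision repair removes small base lesions such as 8-oxoguanine. A glycosylase cuts out the damaged base, an endonuclease opens the strand at the abasic site, and a polymerase and a ligase fill and seal the gap on a protein scaffold. H2O2 produces both oxidised bases and single-strand breaks, the substrates of this pathway. An ATAC-seq peak at such a gene shows that DNA there was open to the transposase and does not measure the activity of the gene or of its protein.

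The DNA just before 5 of these starts is printed because it lies under the start peaks described below. The sequences are from RefSeq, assembly GRCh38.p14, which matches hg38. They hold the 250 bases before the start, or, for *NTHL1*, the 150 bases between its start and that of *TSC2* on the other strand. Capitals mark matches on either strand to the GC box GGGCGG, the CCAAT box, the ETS motif CCGGAAG, the NRF1 motif and the E-box CACGTG, none of which overlap here. Each sequence reads 5′ to 3′ toward the gene.
OGG1 (chr3:9749702-9749951, plus strand): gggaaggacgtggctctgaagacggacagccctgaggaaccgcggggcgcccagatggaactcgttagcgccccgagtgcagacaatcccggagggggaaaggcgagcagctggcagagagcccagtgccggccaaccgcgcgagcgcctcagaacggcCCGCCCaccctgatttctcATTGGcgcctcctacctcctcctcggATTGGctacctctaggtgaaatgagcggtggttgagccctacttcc
NTHL1 (chr16:2047835-2047984, minus strand): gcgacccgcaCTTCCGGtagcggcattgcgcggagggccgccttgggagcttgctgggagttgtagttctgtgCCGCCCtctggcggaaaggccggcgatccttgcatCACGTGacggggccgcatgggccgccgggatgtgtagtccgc
APEX1 (chr14:20454976-20455225, plus strand): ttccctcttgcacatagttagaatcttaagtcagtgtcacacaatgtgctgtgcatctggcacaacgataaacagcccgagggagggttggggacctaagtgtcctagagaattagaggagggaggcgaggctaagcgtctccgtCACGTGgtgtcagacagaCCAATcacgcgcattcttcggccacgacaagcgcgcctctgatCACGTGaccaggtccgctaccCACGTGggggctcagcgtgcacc
PARP1 (chr1:226408094-226408343, minus strand): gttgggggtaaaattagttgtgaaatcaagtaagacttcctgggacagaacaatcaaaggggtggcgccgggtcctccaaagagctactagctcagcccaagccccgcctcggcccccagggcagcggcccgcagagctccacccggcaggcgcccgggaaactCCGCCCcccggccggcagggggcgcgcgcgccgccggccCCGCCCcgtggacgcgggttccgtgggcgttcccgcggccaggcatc
LIG3 (chr17:34980262-34980511, plus strand): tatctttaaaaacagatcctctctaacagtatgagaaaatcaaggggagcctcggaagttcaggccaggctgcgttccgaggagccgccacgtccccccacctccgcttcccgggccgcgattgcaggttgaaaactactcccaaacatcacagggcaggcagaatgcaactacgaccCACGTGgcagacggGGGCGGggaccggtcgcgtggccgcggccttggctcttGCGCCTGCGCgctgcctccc

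Among the 8 members with an annotated start, the 250 bases before the outermost start held a GC box in 5 (*OGG1*, *NTHL1*, *XRCC1*, *PARP1*, *LIG3*), against 55.8% of 15812 protein-coding genes. A CCAAT box was found in 5 (*OGG1*, *MUTYH*, *NEIL1*, *APEX1*, *XRCC1*), against 34.4%, and an E-box in 3 (*NTHL1*, *APEX1*, *LIG3*), against 7.79%. *APEX1* held 3 E-boxes, a number reached by 0.133% of the genes; this count was looked up after the sequence was seen. The NRF1 motif was in 2 (*XRCC1*, *LIG3*), against 7.67%, and the ETS motif in 1 (*NTHL1*), against 11.7%. The AP-1 motif TGANTCA was in 1 (*MUTYH*), against 5%, and the core of the antioxidant response element, TGANNNNGC, in 1 (*NTHL1*), against 35.7%. The CRE TGACGTCA (2.29% of genes) and the YY1 motif AAGATGGC (1.41%) were in none. GC content before the start lay between 55.2% (*NEIL1*) and 74% (*NTHL1*), where the quartiles over all genes were 52.8% and 70%. A match describes the letters only and is not a bound site.

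The 4 lists held between 97816 and 115292 peaks with median widths between 453 and 485 bp, and merging peaks that overlapped or touched gave 129052 regions. The column used for signal is the authors' own value per peak. It is ranked here only within a list, as a percentile, and it followed peak width within each list (Spearman correlation across peaks between 0.842 and 0.882). Of 10 bone-lineage genes used to check the label, between 7 and 8 had a peak within 1 kb of a gene end in each list, *COL1A1* among them, while *ALPL* and *IBSP* had none in any list. Blood (1 to 2 of 4), epithelial (2 of 3) and neuronal (2 of 3) genes also had such peaks, and an open gene end is no proof of expression.

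The 9 windows, between 42.5 and 87.4 kb long, held 62 merged regions: 9 at the members' own starts, 15 elsewhere inside a member's span and 38 in the flanks. By window there were 8 regions for *OGG1*, 4 for *MUTYH*, 11 each for *NTHL1* and *NEIL1*, 4 for *APEX1*, 9 for *XRCC1*, 6 for *PARP1*, 5 for *POLB* and 4 for *LIG3*. The median was 5 over 11826 protein-coding genes with windows of such lengths. Of the 62 regions, 44 (71%) had a peak in all 4 lists, against 62.1% of all regions. Another 9 (14.5%) were in 1 list, against 15.8% of all regions. The 20 kb limit is arbitrary: 14 regions lay up to 5 kb inside it and 7 up to 5 kb outside it. Outside the gene starts many regions belong to other genes, and 19 of them were within 1 kb of an end of another protein-coding gene.

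**Figure D1:**
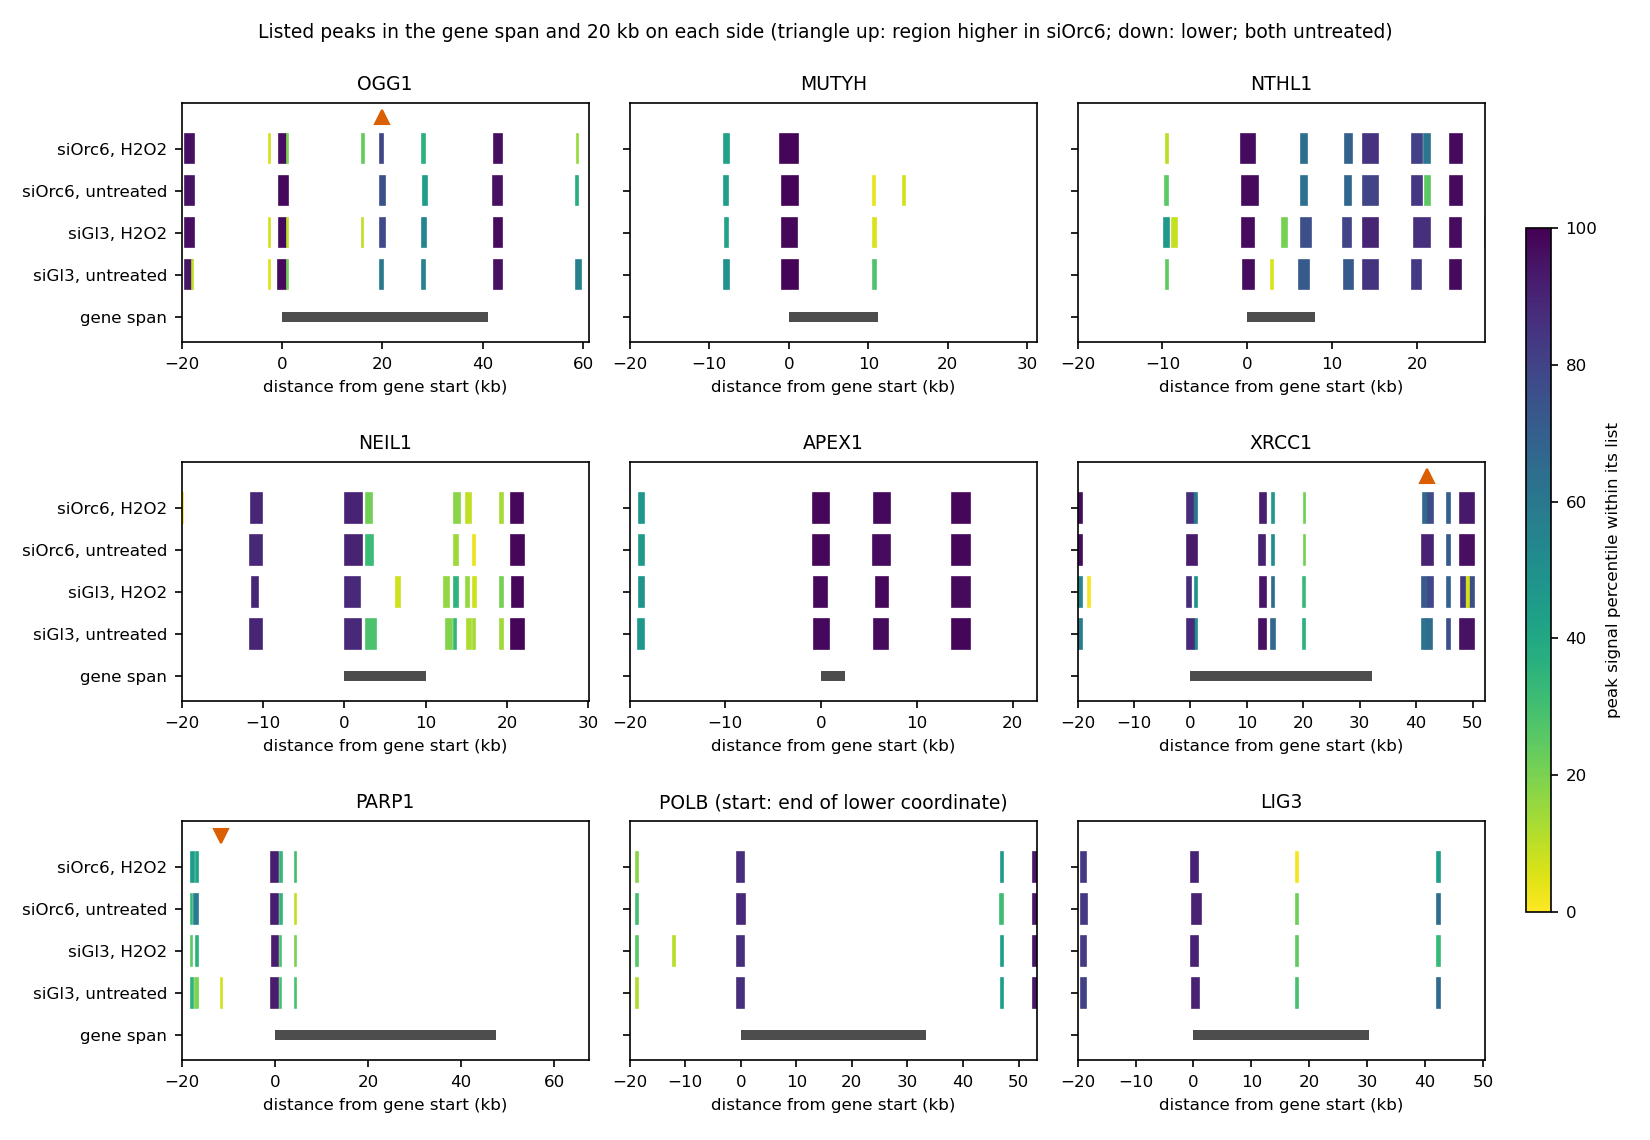
Listed peaks around the 9 genes. The x axis is the distance from the gene start in kb, with the gene running to the right, each row is a peak list, the colour is the peak's signal percentile in its own list, the grey bar is the gene span, and triangles mark regions the authors listed as changed by siOrc6. Every gene has a dark peak at its start in all 4 rows. The peaks missing from some rows are mostly pale, the strongest being that at the *TTLL3* start near *OGG1* (55.5 list percentile in untreated siGl3 cells).

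All 9 genes had a peak at the start, meaning within 1 kb of it, in all 4 lists, against 68.8% of the 15812 protein-coding genes with an annotated start. *POLB* has no strand in the promoter table used, and the end of lower coordinate, which carried its only gene-end peak, stands for its start. These peaks stood between the 86.5 and 99.1 percentiles of their lists, with medians of 91.5 (siOrc6, H2O2), 92.6 (siOrc6, untreated), 91.6 (siGl3, H2O2) and 92.1 (siGl3, untreated). The start peaks of all such genes had medians of 89.9, 89.7, 89.8 and 88.6 in the same order of lists. The start regions were *OGG1* at chromosome 3, 9749253 to 9751219, *MUTYH* at chromosome 1, 45339238 to 45341539, *NTHL1* at chromosome 16, 2046570 to 2048584, and *NEIL1* at chromosome 15, 75347119 to 75349218. Those of *APEX1* and *PARP1* were at chromosome 14, 20454342 to 20456073, and chromosome 1, 226407373 to 226408793. Those of *XRCC1*, *POLB* and *LIG3* were at chromosome 19, 43574428 to 43576152, chromosome 8, 42337913 to 42339192, and chromosome 17, 34980114 to 34981756 (hg38). The *NEIL1* region begins after the outermost start of that gene (75347039) and does not cover the 250 bases searched for motifs. Some start regions are shared with a neighbour: the starts of *TOE1*, *TSC2* and *OSGEP* lay within 1 kb of the *MUTYH*, *NTHL1* and *APEX1* regions, and an end of *PINLYP* within 1 kb of the *XRCC1* region. A peak there cannot be given to 1 gene of such a pair.

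H2O2 against no treatment was the main comparison. To set lists of different lengths side by side, each region found in all 4 lists was also ranked among those 80119 regions alone, and the percentiles and shifts from here on are on that scale (shared-region percentile) unless a list percentile is named. At the 9 starts, the shared-region percentile with H2O2 minus that without it had a median of 0.22 points in siOrc6 cells and 0.45 points in siGl3 cells. The corresponding medians over the starts of 10834 protein-coding genes were 1.06 and 1.79 points. In siOrc6 cells 4 of the 9 starts were lower with H2O2, against 28.7% of all gene starts, and in siGl3 cells 2 of 9 were lower, against 26.3%. By the highest peak signal of each region, the measure used unless another is named, no start moved by 10 points or more. All 9 starts ranked above 80 without H2O2. Of all regions at 80 or higher there, only 2.68% in siOrc6 cells and 4.25% in siGl3 cells moved that far. Other measures gave larger shifts at some starts. By signal per base of width, *XRCC1* shifted by 13.15 points in siOrc6 and 21.86 in siGl3 cells. *LIG3* shifted by 12.68 points in siOrc6 and -7.62 in siGl3 cells. By -log10 p, *POLB* shifted by 3.71 points in siOrc6 and 13.59 in siGl3 cells. The share over all regions was not computed for these measures.

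The glycosylases come first, the enzymes that find and cut out the oxidised base. *OGG1*, which removes 8-oxoguanine, stood at 96.0 with H2O2 and 97.1 without it in siOrc6 cells, and at 96.9 with H2O2 and 97.2 without it in siGl3 cells. *MUTYH*, which removes adenine paired with 8-oxoguanine, had 98.3 with H2O2 and 98.8 without it in siOrc6 cells, and 97.6 with H2O2 and 98.5 without it in siGl3 cells. Of the 9 starts, only these ranked lower with H2O2 under both siRNAs, by 1.09 points or less; the *OGG1* region is 1 peak in untreated siOrc6 cells and 2 in each of the other lists, and with summed signal its shifts were -0.59 and -0.40 points, but by signal per base of width 4.29 and 0.60 points. The *MUTYH* shifts stayed negative with summed signal and signal per base of width, but by -log10 p they were 0.27 points in siOrc6 and 0.91 points in siGl3 cells. *NTHL1*, a glycosylase for oxidised pyrimidines, stood at 96.4 with H2O2 and 96.7 without it in siOrc6 cells, and at 96.4 with H2O2 and 95.9 without it in siGl3 cells. *NEIL1*, which also removes oxidised pyrimidines, stood lower in rank, at 88.4 with H2O2 and 87.3 without it in siOrc6 cells, and at 85.0 with H2O2 and 84.2 without it in siGl3 cells. For *NEIL1*, as for *APEX1*, *XRCC1* and *POLB* below, both siOrc6 values lay above both siGl3 values.

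*APEX1*, the endonuclease that cuts the strand at abasic sites, had 98.0 with H2O2 and 97.7 without it in siOrc6 cells, and 97.2 with H2O2 and 97.0 without it in siGl3 cells. *PARP1*, which binds single-strand breaks and builds poly(ADP-ribose) chains there, had 89.9 with H2O2 and 88.9 without it in siOrc6 cells, and 89.6 with H2O2 and 89.1 without it in siGl3 cells. These 2 starts kept within 1.09 points across the treatment under either siRNA. *XRCC1*, the scaffold that gathers the ligase and polymerase, stood at 84.2 with H2O2 and 90.2 without it in siOrc6 cells, and at 83.2 with H2O2 and 83.0 without it in siGl3 cells. The untreated siOrc6 value stands apart: there the region is 1 peak, while in each of the other lists it is 2 peaks, and with the signal summed over the peaks the shift in siOrc6 cells was 0.01 points instead of -6.00, and by signal per base of width 13.15 points.

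*POLB*, the polymerase that fills the gap, had 84.5 with H2O2 and 84.2 without it in siOrc6 cells, and 83.4 with H2O2 and 81.3 without it in siGl3 cells. *LIG3*, the ligase that works with XRCC1, had 88.5 with H2O2 and 87.2 without it in siOrc6 cells, and 87.5 with H2O2 and 86.1 without it in siGl3 cells. Ordered by signal, *MUTYH*, *APEX1*, *OGG1* and *NTHL1* ranked above 95 in every list, and *NEIL1*, *PARP1*, *LIG3*, *XRCC1* and *POLB* at 90.2 or below. With no spread between libraries, neighbours within either group cannot be told apart. The 3 other protein-coding genes whose start peaks were nearest to the members' median list percentiles over the 4 lists were *PLS1* (Euclidean distance 0.321 points), *TRAPPC6B* (0.537) and *DTX3L* (0.567), and 37 of 10848 genes lay within 1 point.

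**Figure D2:**
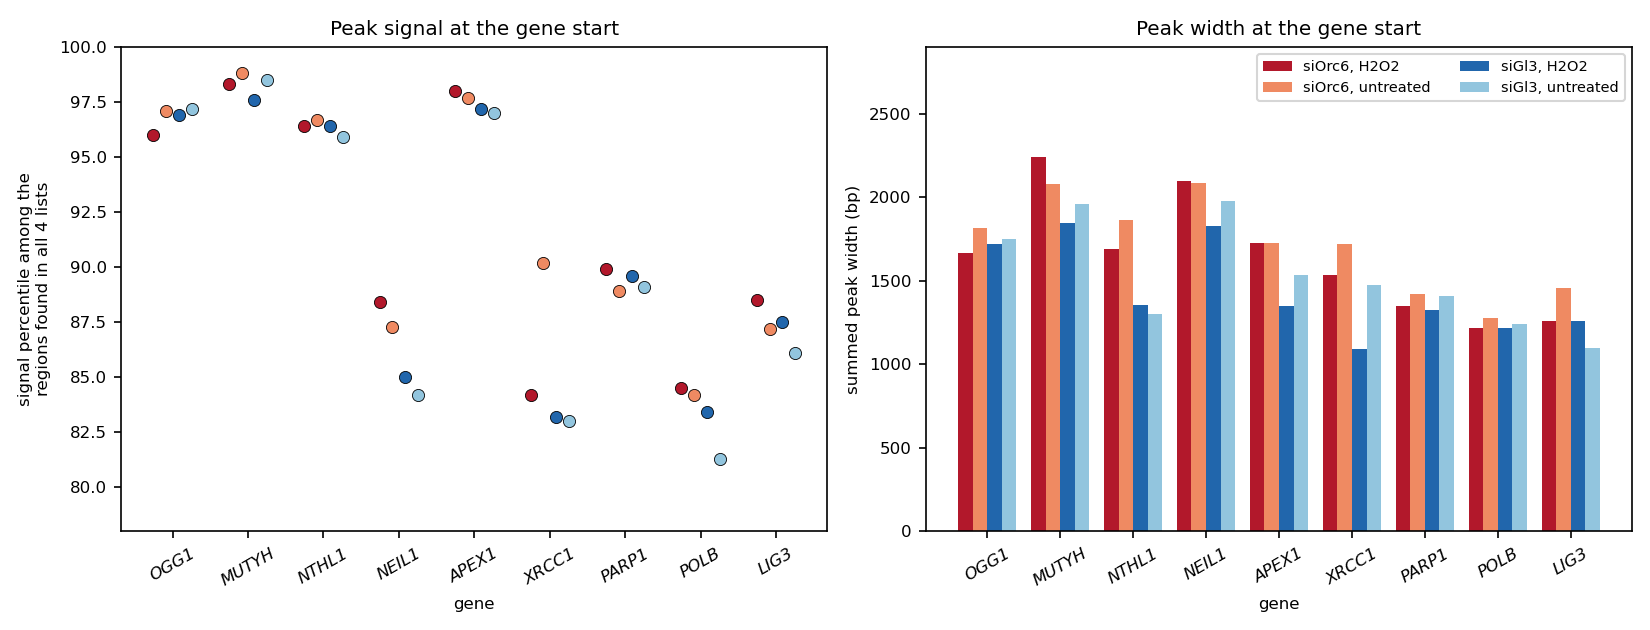
Peaks at the 9 gene starts. Left, signal percentile among the regions found in all 4 lists (axis from 78 to 100), right, summed peak width in bp, each with 1 value per list. *MUTYH*, *APEX1*, *OGG1* and *NTHL1* lie above 95 in every list, and *XRCC1* has 1 high value in untreated siOrc6 cells.

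The start peaks were between 1090 and 2239 bp wide. The ratio of the width with H2O2 to that without it had a median of 0.95 in siOrc6 cells and 0.94 in siGl3 cells, against 0.99 over all gene starts under either siRNA. Under each siRNA 7 of the 9 were narrower with H2O2, against 57.4% of all gene starts in siOrc6 cells and 56% in siGl3 cells, the exceptions being *MUTYH* (ratio 1.08) and *NEIL1* (1.01) in siOrc6 cells and *NTHL1* (1.04) and *LIG3* (1.15) in siGl3 cells. The lowest ratio was that of *XRCC1* in siGl3 cells, with 1090 bp with H2O2 and 1474 bp without it (0.739). Over all regions of the windows, the width was smaller by 1.5 times or more with H2O2 in 3 of 46 regions in siOrc6 cells (6.52%, against 11.8%) and 2 of 50 in siGl3 cells (4%, against 11.6%), and larger by as much in 2 of 46 (4.35%, against 3.35%) and 5 of 50 (10%, against 3.66%).

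Peaks listed in only the H2O2 or only the untreated list of an siRNA lay away from the members' starts, and all but 1 stood below the 30th percentile of their list. In siOrc6 cells, 5 of 51 regions of the H2O2 list had no untreated peak (9.8%, against 7.03% of all regions of that list), and 3 of 49 untreated regions had no H2O2 peak (6.12%, against 17%). In siGl3 cells these were 6 of 56 (10.7%, against 8%) and 4 of 54 (7.41%, against 17%). Presence depended on strength in the whole series: of untreated regions under the 20th list percentile, 59.3% in siOrc6 cells and 57.5% in siGl3 cells had no H2O2 peak, but of those at the 80th or higher 0.00944% and 0.00905%. Member windows held more strong regions than the lists as a whole, and the medians of their list percentiles lay between 65.5 and 74.6. Below the 20th percentile, 3 of 6 untreated regions in siOrc6 cells and 2 of 9 in siGl3 cells had no H2O2 peak, and 4 of 10 H2O2 regions in siOrc6 cells and 5 of 11 in siGl3 cells had no untreated peak (against 26.9% and 29.7%). Between the 20th and 80th percentiles, 0 of 20 untreated regions in siOrc6 cells (against 8.47%) and 2 of 22 in siGl3 cells (against 9.14%) had no H2O2 peak, and 1 of 18 H2O2 regions in siOrc6 cells (against 2.74%) and 1 of 22 in siGl3 cells (against 3.43%) had no untreated peak. None of the regions at the 80th percentile or higher was missing from the other list, and for H2O2 regions this held for all but 0.0106% and 0% of the series.

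A single region was listed with H2O2 under both siRNAs and in neither untreated list, a pattern of 1.45% of all regions. It lies where the spans of *OGG1* and *CAMK1* overlap, 16.1 kb after the *OGG1* start (chromosome 3, 9765957 to 9766199), and cannot be given to either gene. It was 243 bp wide in siOrc6 cells and 212 bp in siGl3 cells, at the 23.1 and 9.75 list percentiles. The other regions listed with H2O2 but not without it under one siRNA lay in the windows of *OGG1* (siOrc6), *NEIL1* (3 regions in siOrc6 cells and 1 in siGl3 cells), *NTHL1* (2 in siGl3 cells), *XRCC1* and *POLB* (1 each in siGl3 cells), all at or below the 20.4 list percentile. No region of the windows was listed in both untreated lists and in neither H2O2 list, against 4.86% of all regions.

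**Figure D3:**
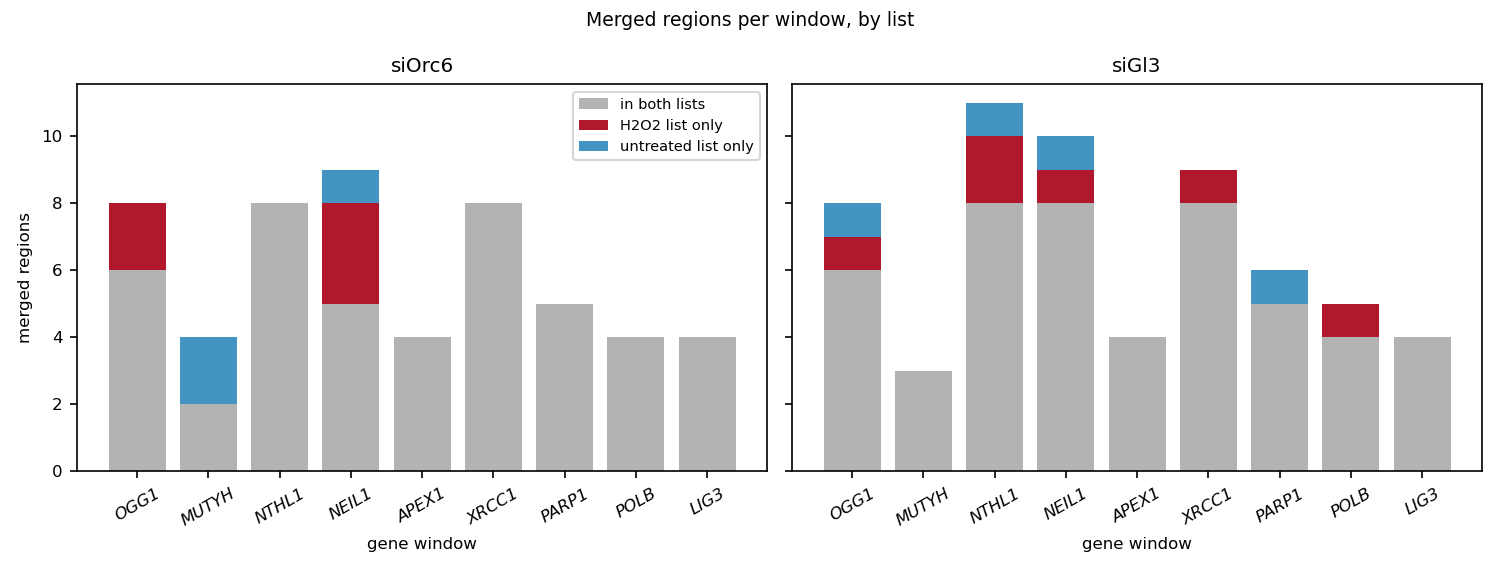
Merged regions in each gene's window (y axis, number of regions) by the list they appear in, siOrc6 on the left and siGl3 on the right. Grey bars are regions in both lists of an siRNA, red those in the H2O2 list only and blue those in the untreated list only; *APEX1* and *LIG3* have neither red nor blue.

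Among regions listed without H2O2 but not with it, the strongest was at the *TTLL3* start, in the flank of *OGG1* (chromosome 3, 9808471 to 9809422). In siGl3 cells it had no peak with H2O2 and stood at the 55.5 list percentile without it; in siOrc6 cells it stood at 15.2 with H2O2 and 37.4 without it. A region of *NEIL1* 3.26 kb after the start had no peak with H2O2 and a list percentile of 27.4 without it in siGl3 cells, but in siOrc6 cells it was listed at 21.0 with H2O2 and 31.0 without it. In *MUTYH*, a region 10.8 kb after the start had no peak with H2O2 and 3.69 without it in siOrc6 cells, and 5.41 with H2O2 and 27.2 without it in siGl3 cells. In these 3 regions the value with H2O2 was lower or missing under both siRNAs, on list percentiles, which the longer untreated lists raise for a peak of equal strength. The remaining ones, at *NTHL1* (siGl3), *PARP1* (siGl3), *NEIL1* (siOrc6) and the *HPDL* start near *MUTYH* (siOrc6), were at or below the 6.77 list percentile.

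Of the 44 regions in all 4 lists, 6 moved by 10 points or more with H2O2 in siOrc6 cells (13.6%, against 27.6% of all such regions) and 8 in siGl3 cells (18.2%, against 30.6%). Weak regions move more: below the 80th percentile without H2O2 the counts were 5 of 23 (21.7%, against 33.9%) and 7 of 24 (29.2%, against 37.2%), and at the 80th or higher 1 of 21 (4.76%, against 2.68%) and 1 of 20 (5%, against 4.25%). The moves went 3 down and 3 up in siOrc6 cells (13.8% of all regions each way), and 2 down and 6 up in siGl3 cells (15.4% down and 15.3% up). The median shift over the 44 regions was 0.96 points in siOrc6 cells and 1.93 in siGl3 cells, against -0.06 and -0.20 over all regions. Of the 44 regions, 24 lay at a gene end. The starts of all protein-coding genes had medians of 1.06 and 1.79 points, close to those of the windows. With percentiles of the whole lists in place of the shared regions the medians of the windows were -0.26 and -0.04, so the direction rests on which regions are ranked.

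**Figure D4:**
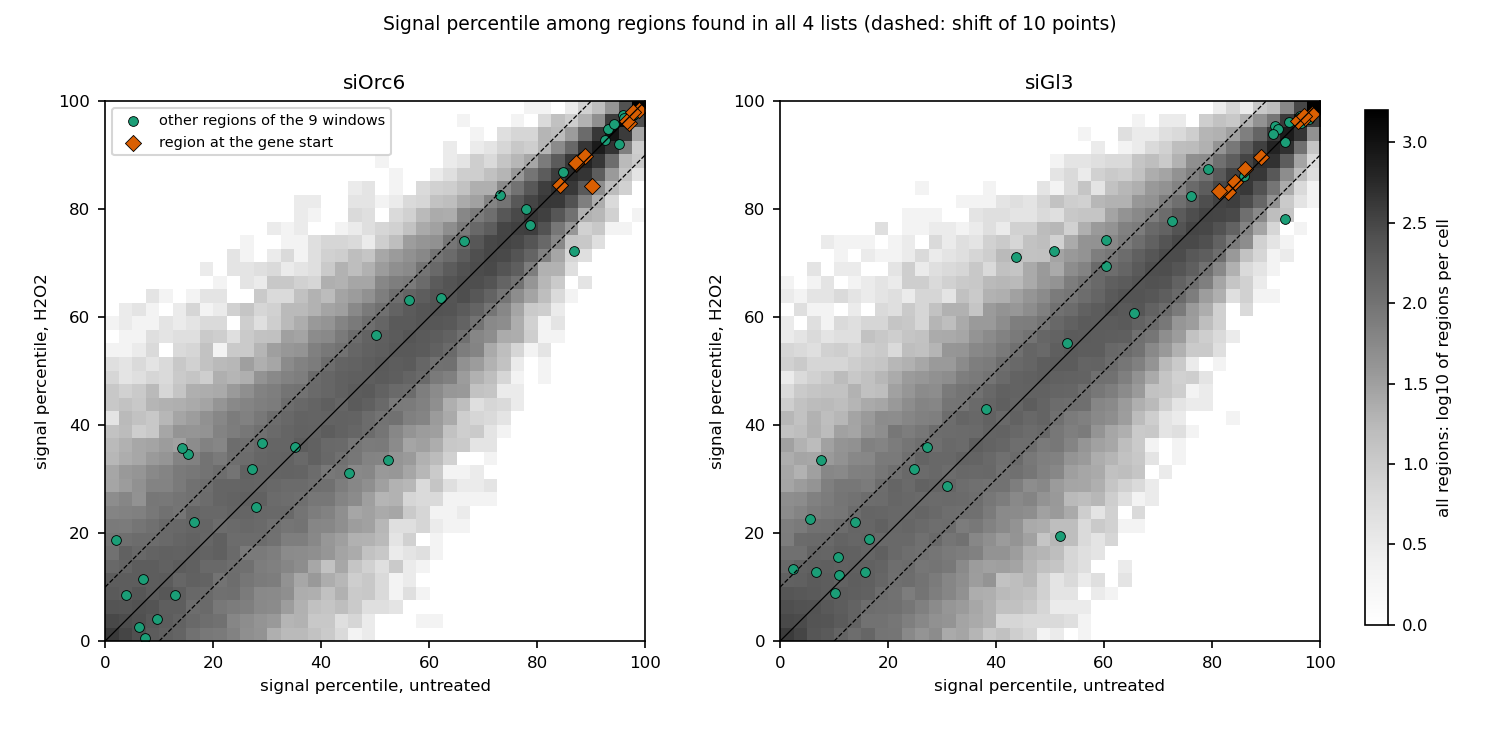
Shared-region percentile with H2O2 (y axis) against that without it (x axis), siOrc6 on the left and siGl3 on the right. Diamonds are the 9 start regions, circles the other regions of the windows, and the grey scale counts all 80119 regions; every start lies between the dashed lines at 10 points, and the circles outside them are 6 on the left and 8 on the right.

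By highest peak signal, no region was higher by 10 points or more under both siRNAs (against 7.56% of all regions). In 1 region the percentile was lower by as much under both (2.27%, against 7.41%). It is 42.3 kb after the start of *LIG3*, past the gene's end and inside *RFFL*, a ubiquitin ligase gene (chromosome 17, 35022585 to 35023114; *RFFL* is named after the values were seen). It stood at 33.5 with H2O2 and 52.4 without it in siOrc6 cells, and at 19.5 with H2O2 and 51.8 without it in siGl3 cells, shifts of -18.95 and -32.27 points. The direction was the same with summed signal, signal per base of width and -log10 p. It was in none of the authors' changed lists, which compare siRNAs and not treatments. By -log10 p, the regions 6.84 and 11.9 kb after the *NTHL1* start and 46.9 kb after the *POLB* start were higher by 10 points or more under both. By signal per base of width, so were the *XRCC1*, *CAMK1* and *ZNF575* starts. Also higher by that measure were regions at -10.8 kb from the *NEIL1* start and 14.5 kb after the *NTHL1* start. The region 20.5 kb after the *NTHL1* start was lower by as much under both by either measure.

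Other moves were seen under one siRNA. At the *CAMK1* start, inside the *OGG1* span and 20 kb after the *OGG1* start, siOrc6 cells had 74.1 with H2O2 and 66.4 without it, and siGl3 cells 71.1 with H2O2 and 43.7 without it (shift 27.39 points). The untreated siGl3 value is the low one of the 4. Near *NTHL1*, a region at -9.55 kb, before the start, had 4.06 with H2O2 and 9.58 without it in siOrc6 cells, and 33.6 with H2O2 and 7.53 without it in siGl3 cells. By signal per base of width its siGl3 shift was -8.74 points instead of 26.03. Between 6.84 and 14.5 kb after the *NTHL1* start, in the gene and beyond its end in *NHERF2*, each of 3 regions ranked higher with H2O2 under both siRNAs, by 6.55 to 9.64 points in siOrc6 cells and 8.25 to 13.92 points in siGl3 cells, except that by signal per base of width the region at 11.9 kb had a siOrc6 shift of -6.14 points. In *PARP1*, a region 4.47 kb after the start had 18.8 with H2O2 and 2.07 without it in siOrc6 cells, and 9.01 with H2O2 and 10.2 without it in siGl3 cells. A region at -17.7 kb, before the *PARP1* start, had 34.7 with H2O2 and 15.4 without it in siOrc6 cells, and 12.8 with H2O2 and 15.7 without it in siGl3 cells. By signal per base of width its siOrc6 shift was -15.09 points instead of 19.29. For both *PARP1* regions the H2O2 value in siOrc6 cells is the high one of the 4. A region at -18.6 kb, before the *POLB* start, had 8.49 with H2O2 and 13.0 without it in siOrc6 cells, and 13.4 with H2O2 and 2.34 without it in siGl3 cells. A region 46.9 kb after the *POLB* start had 35.8 with H2O2 and 14.2 without it in siOrc6 cells, and 31.9 with H2O2 and 24.8 without it in siGl3 cells. That region was thus higher with H2O2 under both siRNAs, and by -log10 p its shifts were 23.82 points in siOrc6 and 25.95 points in siGl3 cells. At the *ETHE1* start, in the flank of *XRCC1* (named after its values were seen), siGl3 cells had 78.2 with H2O2 and 93.5 without it; the region is 3 peaks in that H2O2 list and 1 in the untreated one, and with summed signal the shift was -1.28 points instead of -15.24, and by -log10 p and signal per base of width 5.66 and 35.46 points.

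Depletion of Orc6 was the other axis of the design. The authors' deposited tables of regions changed in siOrc6 against siGl3 placed 3 regions in the 9 windows, all from untreated cells. Of regions higher in siOrc6 there were 2, in the windows of *OGG1* and *XRCC1* (2 of 9 genes, against 20% of genes with windows of such lengths). Of lower ones there was 1, near *PARP1* (1 of 9, against 13.2%). With H2O2 none was higher or lower (against 1.85% and 2.95% of genes). By region, 2 of 62 were listed higher without H2O2 (3.23%, against 6.85% of all regions) and 1 lower (1.61%, against 4.74%), and none with H2O2 (against 0.945% higher and 1.19% lower). None lay at a member's own start.

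In the authors' deposited table the region higher at *OGG1* spans chromosome 3, 9769470 to 9770484, at the *CAMK1* start; *CAMK1* encodes a calcium/calmodulin-dependent kinase. Its shared-region percentile was 66.4 in siOrc6 and 43.7 in siGl3 cells without H2O2, and 74.1 in siOrc6 and 71.1 in siGl3 cells with it. The region higher in siOrc6 in the *XRCC1* window, in the authors' deposited table, spans chromosome 19, 43532531 to 43534516, at the start of the zinc finger gene *ZNF575*, 42 kb after the *XRCC1* start. It stood at 86.8 in siOrc6 and 50.7 in siGl3 cells without H2O2, and at 72.3 in siOrc6 and 72.2 in siGl3 cells with it. At both regions the siRNAs lay 22.67 points or more apart without H2O2 and 2.93 points or less apart with it, on lists that the comparison of treatments also uses. Both are shown because the authors listed them as changed without H2O2, and neither is in their lists with it. The wide gap without H2O2 was thus chosen for, and the smaller gap with H2O2 is no separate result. The *ZNF575* region is 1 peak in untreated siOrc6 cells and 2 peaks in each of the other lists. The lower region of the authors' deposited table, 325 bp at chromosome 1, 226419349 to 226419673, lies before *PARP1*, at -11.4 kb from its start, and matches a peak of untreated siGl3 cells alone, at the 6.74 list percentile.

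Among the windows' regions, 1 of 49 untreated siOrc6 regions had no siGl3 peak (2.04%, against 10.4%) and 6 of 54 untreated siGl3 regions had no siOrc6 peak (11.1%, against 14%). With H2O2 these were 3 of 51 (5.88%, against 8.93%) and 8 of 56 (14.3%, against 13.5%). In rank, 8 of 44 regions were lower in siOrc6 by 10 points or more with H2O2 (18.2%, against 13%) and 3 higher (6.82%, against 12.8%), and without it 4 were lower and 4 higher (9.09% each, against 14.7% and 14.8%). Of the regions in all 4 lists, 3 ranked at least 10 points lower in siOrc6 than in siGl3 both with and without H2O2 (6.82%, against 7.8%), and none ranked that much higher in both (against 5.92%). All 3 lie inside the spans of members. In *XRCC1*, 14.7 kb after the start, the values with H2O2 were 35.9 in siOrc6 and 55.2 in siGl3 cells, and without it 35.1 in siOrc6 and 53.2 in siGl3 cells. In *NTHL1*, 6.84 kb after the start, they were 56.7 in siOrc6 and 69.5 in siGl3 cells with H2O2, and 50.2 in siOrc6 and 60.3 in siGl3 cells without it. In *OGG1*, 28.4 kb after the start, they were 24.8 in siOrc6 and 43.0 in siGl3 cells with H2O2, and 27.9 in siOrc6 and 38.1 in siGl3 cells without it. At the 9 starts, the siOrc6 value was the higher one in 8 with H2O2 (all but *OGG1*; 60.8% of all gene starts) and in 7 without it (all but *OGG1* and *PARP1*; 71.4% of all gene starts), with median differences of 0.84 and 0.78 points, against 0.35 and 1.15 points over all gene starts.

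The rest of the pathway was followed in 21 further genes of base excision and single-strand break repair, among them glycosylases, polymerases and the clamp *PCNA*. All 21 had a gene-start peak in all 4 lists (a gene-end peak where the table used has no start, as for *SMUG1* and *NEIL2*), against 68.8% of genes. With H2O2 the shift of their strongest start region had a median of 0.30 points in siOrc6 cells and 0.43 in siGl3 cells, against 1.06 and 1.79 over all gene starts. Shifts of 10 points or more numbered 0 of 21 in siOrc6 cells and 1 of 21 in siGl3 cells. Among all regions in all 4 lists these were 27.6% and 30.6%, among those at 80 or higher without H2O2 2.68% and 4.25%, and among those below 80 33.9% and 37.2%. Not all 21 ranked at 80 or higher: the lowest list percentile without H2O2 was 73.9 in siOrc6 and 68.5 in siGl3 cells. The 1 such shift was at *POLE*, the catalytic subunit of a replicative polymerase: 9.60 points higher with H2O2 in siOrc6 cells and 12.73 points higher in siGl3 cells (named after its values were seen). Its list percentiles without H2O2, 83.4 in siOrc6 and 81.9 in siGl3 cells, lie below 80 on the shared-region scale.

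Within 20 kb of these 21 genes, the authors' deposited tables placed regions higher without H2O2 at 5 genes, lower without it at 2, higher with it at 0 and lower with it at 2. The shares over genes with windows of the lengths of the 9 members were 20%, 13.2%, 1.85% and 2.95%. Without H2O2 higher ones included those near *MPG*, *PARP2*, *FEN1* and *POLD1* (2 regions), and the lower ones were near *SMUG1* and *APLF*. With H2O2 those near *APLF* and *NUDT1* were lower. At *FEN1*, the flap endonuclease of the long-patch branch, the higher region of 1681 bp lay over the gene and its start, which it shares with *TMEM258*. The *APLF* region, 8.42 kb from its start, was lower both without H2O2 (222 bp) and with it (229 bp). The others named lay between 5.94 and 33.2 kb from the nearest annotated start or end of the listed gene.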

How the data were processed

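ATAC-seq peaks of 8 libraries in 4 conditions were used as 4 lists, 1 per condition, whose names carry both replicate numbers. Per the submitters' processing notes, the authors' tools include Genrich, edgeR, Bowtie2, SAMtools, Picard, deepTools and bcl2fastq 2.20, with build hg38; role, order and thresholds, treatment of duplicates and any shift for the transposase are not given in the sources used here. The deposited lists give a peak signal and a −log10 p-value per peak, as the authors' caller made them, with signal above 200 in every list. Signal grows with peak width, so a peak called as 1 piece in one list and 2 in another changes rank. The deposited lists of changed regions hold coordinates and a running index only, and their starts lie 1 base before those of the matching peaks.

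Peaks on chromosomes 1 to 22 and X were merged where they overlapped or touched; peaks on other sequences (147 to 168 in a list) were not used. A region belongs to a window if it overlaps it by at least 1 bp. Its value in a list is the highest peak signal, as a percentile of that list or of the 80119 regions in all lists. A shift of 10 points or a width ratio of 1.5 was the size named. Gene spans and starts came from RefSeq tables of assembly GRCh38.p14, which matches hg38; 8 of 9 members have a start there, and exons were not annotated. The members and gene lists were chosen with earlier results of these data known. Members are always named; of other repair genes, those with a changed region within 20 kb or a start peak missing in a list; neighbours where their start is within 1 kb of a member's start peak or of a changed or partly listed region; and the 3 genes nearest in start percentiles. *RFFL*, *ETHE1*, *PINLYP*, *NHERF2* and *POLE* fall outside this. A result for 1 further repair gene is not reported here. Merging and ranking were tested on simulated lists. Alternatives were other windows, stronger peaks, wider merging, stricter overlap and other ranks. Python 3.11.15, numpy 2.4.6, pandas 2.3.3 and matplotlib 3.10.9 were used.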

Additional observations from a re-analysis of the deposited data

Results flagged for a closer look

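Regions of the windows were looked at again where H2O2 moved the shared-region percentile by 10 points or more in opposite directions under the 2 siRNAs, which held for 2 of 44 regions (4.55%) and 0.785% of all regions. The difference was not tested, since each condition has 1 list. At the *ZNF575* start in the *XRCC1* window the shift was -14.46 points in siOrc6 cells and 21.49 points in siGl3 cells, so that siOrc6 minus siGl3 was -35.95 points. The region is 1 peak in untreated siOrc6 cells and 2 peaks in each of the other lists, and with summed signal the shifts were -2.09 points in siOrc6 cells and 12.39 points in siGl3 cells. By -log10 p they were 9.12 and 31.66 points, and by signal per base of width 22.78 and 41.75 points, in the same order, so that the directions were no longer opposite. In the *PARP1* window, at -16.9 kb, before the start (chromosome 1, 226424574 to 226425313), the shift was -13.97 points in siOrc6 cells and 17.24 points in siGl3 cells, a difference of -31.21 points. That region is 2 peaks in untreated siGl3 cells and 1 in each of the other lists, and with summed signal the shifts were -13.88 points in siOrc6 cells and -2.71 points in siGl3 cells. By -log10 p they were -12.50 and 3.82 points, and by signal per base of width 0.62 and -24.87 points, in the same order.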

How the results depend on the processing

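No paired analysis was possible because each condition has 1 list for both replicates; for the same reason no replicate could be left out. Of 45 values under 10 alternatives, 28 kept their direction and stayed within 1.5 times (counts) or 1 point (median shifts). The median shift with H2O2 turned to -0.26 points in siOrc6 and -0.04 in siGl3 cells with ranks in the whole list; the whole lists are longer without H2O2, and the cause was not tested further. In siGl3 cells it grew to 3.05 points by -log10 p and 4.80 by signal per base of width. Regions listed with H2O2 but not without it numbered 10 in siOrc6 and 13 in siGl3 cells with 50 kb on each side, 1 and 3 in the gene span alone, and 0 and 0 among peaks in the upper part of their list by the median. Regions listed without H2O2 but not with it numbered 9 and 9 with 50 kb, and 1 and 2 in the span alone; in siGl3 cells they numbered 2 with 10 kb and 2 among the stronger peaks. The span alone held 1 changed region of the authors. Wider or narrower windows hold more or fewer regions by construction. Without read counts, depth and the spread between libraries set limits that cannot be given here.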
